A study of Mus musculus with 11 samples.

Results

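The 8 genes described here are Gpm6b, Penk, Eea1, Nrp1, Polg2, Arrdc3, Trp53inp1 and Igf1r. They were chosen from 19937 genes of a microarray series because their transcripts lay far below the wild-type level in murine T-cell leukemia, in 1 or both phases of the disease. The values that chose them are therefore the contrasts with wild type, which are given below as a description without a test. The rule named no fold, so no gene lies just inside or just outside it. The 8 genes ranked between 5 (Penk) and 99 (Igf1r) by the size of their negative difference in the exponential phase, and between 6 (Gpm6b) and 105 (Igf1r) in the chronic phase.

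The series holds 11 arrays of splenic T-cell RNA. Lckpr-TCL1A+/- mice, in which the proximal Lck promoter drives human TCL1A in T-lineage cells and which develop a disease modelled on T-cell prolymphocytic leukemia, gave 5 arrays of the exponential phase (over 80% tumor cells in blood and over 90% in spleen, average age 15 months, lymphocyte doubling time 12 days with an SEM of 0.8) and 3 of the chronic phase (30 to 70% tumor cells in blood and spleen, average age 12 months). Age-matched C57BL/6 wild-type mice gave 3 arrays, each of RNA pooled from 3 animals, 9 in all. Cells of the leukemias were selected for CD8 and those of the wild-type pools for CD3, which takes T-cells of all kinds, so genotype and cell selection changed together and cannot be told apart in any contrast with wild type. Pools average over animals. Whether a leukemia array came from 1 animal is not stated in the sources read, and the errors therefore measure the spread between arrays. Both contrasts with wild type also share the same 3 wild-type arrays. In such bulk samples, fewer cells of a type and less RNA per cell cannot be told apart.

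Values are on the log2 scale after robust multi-array averaging (RMA), so that a difference of 1 is a doubling. The median of the 19937 genes was 2.33. Over these genes, arrays correlated at 0.946 to 0.984 within the exponential phase, 0.959 to 0.972 within the chronic phase and 0.970 to 0.981 within wild type. Exponential replicate 4 went against the CD8 selection described for the leukemias. Its Cd8a value, for the chain that marks CD8 T-cells, was 2.96, against 7.94 to 8.20 in the other 4 exponential arrays, 6.71 to 8.12 in the chronic arrays and 6.16 to 8.31 in wild type. Its Cd4 value was 5.18, against 2.15 to 2.44 in the other exponential arrays, 1.79 to 2.59 in the chronic arrays and 4.21 to 4.62 in wild type. The main values below include this array. Values without it are given for the 8 genes, the T-cell marker genes and the medians of the pathway, regulatory T-cell, CD4 and CD8 lists.

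The 8 genes belong to different cellular systems. Penk encodes proenkephalin, the precursor from which the enkephalins, peptide ligands of the delta and mu opioid receptors, are cut. Nrp1 encodes neuropilin-1, a co-receptor for class 3 semaphorins and vascular endothelial growth factor. Igf1r encodes the receptor tyrosine kinase for insulin-like growth factors, and Gpm6b a multi-pass membrane glycoprotein of the proteolipid family, best known from neurons and myelin-forming glia. Eea1 encodes a tether of early endosomes that binds the small GTPase Rab5, and Arrdc3 an alpha-arrestin that brings ubiquitin ligases of the NEDD4 family to membrane receptors. Polg2 encodes the accessory subunit of the mitochondrial DNA polymerase gamma. Trp53inp1 encodes a stress protein induced by p53 that acts in cell death and autophagy. As a set they have been called genes outside known T-cell programs. This holds only in part, since Nrp1 is in common use as a surface marker of thymus-derived regulatory T-cells in the mouse and Penk transcripts are known from activated and regulatory T-cells.

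In the RefSeq annotation of GRCm38.p6, all 8 are protein-coding genes, each measured by 1 row of the array. They lie on 7 chromosomes, and only Penk (chr4:4133536-4138815) and Trp53inp1 (chr4:11156441-11174379) share one. The others are Gpm6b (chrX:166238943-166389033), Eea1 (chr10:95940663-96045518), Nrp1 (chr8:128358591-128505476), Polg2 (chr11:106768204-106779537), Arrdc3 (chr13:80883384-80896042) and Igf1r (chr7:67952257-68233668).

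RefSeq promoter windows, most of each lying before the start site, matched 6 of the 8 genes with 8 windows. Since the 8 transcripts were low in the same arrays, these windows were searched on both strands for 3 short motifs. The forkhead motif GTAAACA, known for binding FOXO factors, stood in 1 window, that of Polg2, and in 3.65% of 32851 promoters. The cyclic AMP response element TGACGTCA stood in 1 window, that of Gpm6b, and in 1.79% of all promoters. The E-box CACGTG stood in 0 of the 8 windows and in 7.15% of all promoters. No motif was therefore shared among these 6 genes. Penk and Trp53inp1 had no window and were not searched. The parts around both matches are shown 5′ to 3′ on the strand of the gene, with the motif in capitals, for the minus strand at chr11:106779579-106779705 and the plus strand at chrX:166238834-166238961. The matches begin 108 bases (Polg2) and 49 bases (Gpm6b) before the start site and describe letters only.
Polg2: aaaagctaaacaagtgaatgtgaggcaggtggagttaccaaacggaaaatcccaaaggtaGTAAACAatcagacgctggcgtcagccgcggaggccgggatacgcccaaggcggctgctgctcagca
Gpm6b: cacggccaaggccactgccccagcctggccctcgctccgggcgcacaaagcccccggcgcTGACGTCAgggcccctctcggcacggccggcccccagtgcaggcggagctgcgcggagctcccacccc

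The first question was how each transcript stood in the 3 groups. In all 8 genes, each of the 8 leukemia arrays lay below each of the 3 wild-type pools. Over all genes, groups separated in this way in 3.5% for the exponential phase and in 7.52% for the chronic phase, and the members were selected for such differences, so nothing is read from their count. By limma with a fold of at least 1.5, 0.281% of all genes were called lower and 0.135% higher in the exponential phase, and 0.316% lower and 0.14% higher in the chronic phase. The called genes include 7 of the 8 members in each phase, without Arrdc3 in the exponential and Penk in the chronic phase, which again describes the selection. With 1 array left out, this count was 5 to 8 in the exponential phase and 1 to 7 in the chronic phase, where it was 1 without wild-type replicate 1, 2 without wild-type replicate 2 or 3 and 3 without chronic replicate 1.

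**Figure D1:**
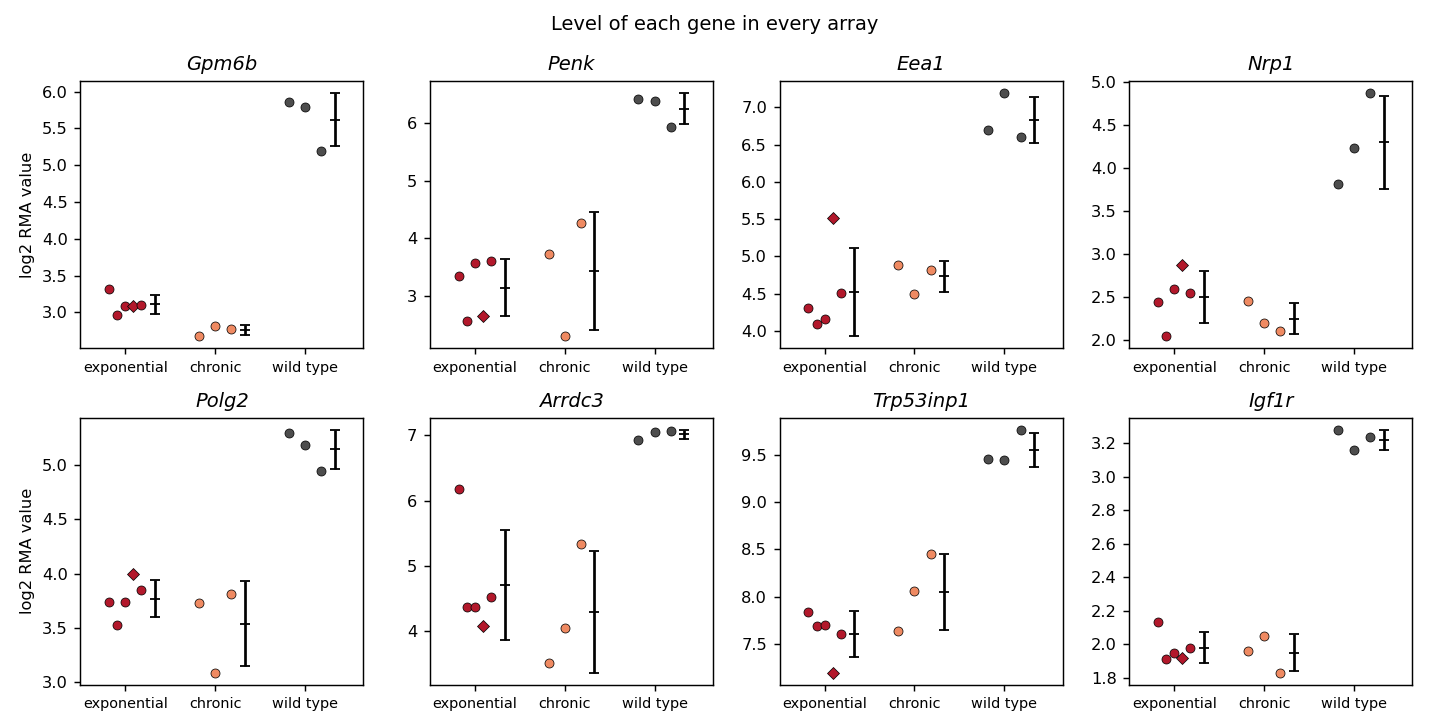
Log2 RMA value (vertical axis, scaled for each gene) of the 8 genes in the 5 exponential, 3 chronic and 3 wild-type arrays. Each point is 1 array, the diamond is exponential replicate 4, and bars are the group mean ± SD; every leukemia point lies below every wild-type point, with the smallest gap in Arrdc3 (0.75) and the widest in Gpm6b (1.89).

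Penk, the opioid peptide precursor, had log2 values of 3.34, 2.56, 3.57, 2.64 and 3.60 in the exponential arrays, 3.73, 2.30 and 4.27 in the chronic arrays and 6.42, 6.38 and 5.94 in the wild-type pools. The chronic arrays spanned the whole leukemic range and enclosed every exponential array, while the wild-type pools stood clear above both. The group means were 3.14 ± 0.50 (exponential, SD, n = 5), 3.43 ± 1.02 (chronic, SD, n = 3) and 6.25 ± 0.27 (wild type, SD, n = 3). The difference from wild type was -3.10 (SE 0.27) in the exponential and -2.81 (SE 0.45) in the chronic phase, or 8.60-fold and 7.02-fold lower. This was the largest exponential difference among the 8 genes. Chronic replicate 2 lay below the median of all genes. Since the level of background was not determined, the folds of Penk may be bounded by it.

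Nrp1, the semaphorin and growth factor co-receptor, had values of 2.45, 2.05, 2.60, 2.87 and 2.55 in the exponential arrays, 2.46, 2.20 and 2.11 in the chronic arrays and 3.81, 4.23 and 4.87 in wild type. The wild-type pools spread more widely than either leukemia group, and 3 of the 8 leukemia arrays lay below the median of all genes, so that, with the level of background not determined, its folds may be bounded as well. Nrp1 averaged 2.50 ± 0.30 in the 5 exponential arrays, 2.25 ± 0.18 in the 3 chronic arrays and 4.30 ± 0.54 in the 3 wild-type pools (± SD). It was 3.48-fold lower in the exponential (log2 difference -1.80, SE 0.24) and 4.13-fold lower in the chronic phase (-2.05, SE 0.26).

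Igf1r, the receptor of insulin-like growth factors, had values of 2.13, 1.91, 1.95, 1.92 and 1.98 in the exponential arrays, 1.96, 2.05 and 1.83 in the chronic arrays and 3.28, 3.16 and 3.24 in wild type. The SD over the 8 leukemia arrays, 0.09, was the smallest of the 8 genes. All 8 leukemia arrays lay below the median of all genes, and since the level of background was not determined, the size of the difference may be bounded by it. The difference from wild type was -1.25 (SE 0.09) in the exponential and -1.28 (SE 0.12) in the chronic phase, or 2.37-fold and 2.42-fold lower.

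Gpm6b, the proteolipid family glycoprotein, had values of 3.32, 2.96, 3.09, 3.09 and 3.10 in the exponential arrays, 2.68, 2.82 and 2.78 in the chronic arrays and 5.86, 5.79 and 5.20 in wild type. Here the 3 groups were stacked without overlap, with the chronic arrays lowest. The means were 3.11 ± 0.13 in the 5 exponential arrays, 2.76 ± 0.07 in the 3 chronic arrays and 5.62 ± 0.36 in the 3 wild-type pools (± SD). The difference from wild type was -2.51 (SE 0.16) in the exponential and -2.86 (SE 0.18) in the chronic phase, or 5.69-fold and 7.25-fold lower. The chronic difference was the largest of the 8 genes.

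Eea1, the early endosome tether, had values of 4.30, 4.09, 4.16, 5.52 and 4.51 in the exponential arrays, 4.88, 4.49 and 4.82 in the chronic arrays and 6.70, 7.19 and 6.60 in wild type. Exponential replicate 4 stood above every other leukemia array. Eea1 averaged 4.52 ± 0.59 in the 5 exponential arrays, 4.73 ± 0.21 in the 3 chronic arrays and 6.83 ± 0.31 in the 3 wild-type pools (± SD). It was 4.97-fold lower in the exponential (-2.31, SE 0.31) and 4.29-fold lower in the chronic phase (-2.10, SE 0.19). Without exponential replicate 4, the exponential mean was 4.27 ± 0.19 (SD, n = 4), a difference of -2.57.

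Arrdc3, the alpha-arrestin, had values of 6.17, 4.38, 4.38, 4.08 and 4.52 in the exponential arrays, 3.52, 4.06 and 5.33 in the chronic arrays and 6.93, 7.04 and 7.06 in wild type. Exponential replicate 1 and chronic replicate 3 were the highest leukemias, and exponential replicate 1 lay 0.75 below the lowest wild-type pool. The wild-type pools agreed within an SD of 0.07, against 0.84 over the exponential and 0.93 over the chronic arrays, and the SD over all 8 leukemias, 0.83, was the largest of the 8 genes. The difference from wild type was -2.30 (SE 0.41) in the exponential and -2.70 (SE 0.40) in the chronic phase, or 4.93-fold and 6.51-fold lower.

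Polg2, the accessory subunit of the mitochondrial DNA polymerase, had values of 3.74, 3.53, 3.74, 4.00 and 3.85 in the exponential arrays, 3.73, 3.09 and 3.81 in the chronic arrays and 5.29, 5.18 and 4.94 in wild type. Chronic replicate 2 was the lowest leukemia and exponential replicate 4 the highest. Polg2 averaged 3.77 ± 0.17 in the 5 exponential arrays, 3.54 ± 0.39 in the 3 chronic arrays and 5.14 ± 0.18 in the 3 wild-type pools (± SD), a 2.58-fold (-1.37, SE 0.13) and a 3.02-fold (-1.59, SE 0.21) lower level in the exponential and the chronic phase.

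Trp53inp1, the p53-induced stress gene, had values of 7.84, 7.69, 7.70, 7.20 and 7.61 in the exponential arrays, 7.64, 8.06 and 8.45 in the chronic arrays and 9.45, 9.44 and 9.76 in wild type. The phases overlapped, through chronic replicate 1. The means were 7.61 ± 0.24 in the 5 exponential arrays, 8.05 ± 0.40 in the 3 chronic arrays and 9.55 ± 0.18 in the 3 wild-type pools (± SD). The difference from wild type was -1.94 (SE 0.15) in the exponential and -1.50 (SE 0.21) in the chronic phase, or 3.85-fold and 2.83-fold lower.

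The comparison of the exponential with the chronic phase was not used to choose the genes, although it shares their leukemia arrays. None of the 8 genes passed the limma test, as 0% of all genes were called higher and 0% lower between the phases. Without adjustment, 1246 of 19937 genes had a p under 0.05. Only Gpm6b did not overlap between the phases, being higher in all 5 exponential than in all 3 chronic arrays, a separation in this direction that 2.3% of all genes showed. Its difference was 0.35 (95% interval 0.12 to 0.58, limma adjusted p = 0.763). Trp53inp1 differed by -0.44 (-0.88 to -0.01, limma adjusted p = 0.795). For the other 6 genes the interval of the difference included 0 and the adjusted p by limma lay between 0.86 (Nrp1) and 0.977 (Igf1r). The intervals set how large a phase difference these arrays leave possible. For Igf1r it reached from -0.19 to 0.25, for Nrp1 from -0.14 to 0.64 and for Polg2 from -0.17 to 0.62. For Eea1 it reached from -0.89 to 0.46, and it was widest for Penk (-1.26 to 0.67) and Arrdc3 (-0.76 to 1.57). Without exponential replicate 4 the difference was -0.46 for Eea1, -0.17 for Penk, 0.16 for Nrp1, 0.17 for Polg2, 0.56 for Arrdc3, -0.34 for Trp53inp1, 0.05 for Igf1r and 0.35 for Gpm6b, with adjusted p-values by limma between 0.628 and 0.963. The difference of Penk turned to 0.12 without chronic replicate 3. The order of the phases was thus not settled for these genes.

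No leukemia array was the highest or the lowest in all 8 genes. The median difference of the 8 genes from the wild-type mean was -1.78, -2.44, -2.19, -1.89 and -2.13 in exponential replicates 1 to 5 and -1.93, -2.22 and -1.83 in chronic replicates 1 to 3. Exponential replicate 1 was the highest leukemia in Gpm6b, Arrdc3 and Igf1r, and exponential replicate 4 in Eea1, Nrp1 and Polg2, while chronic replicate 3 was the highest in Penk and Trp53inp1. The lowest array was exponential replicate 2 in Eea1 and Nrp1, exponential replicate 4 in Trp53inp1, chronic replicate 1 in Gpm6b and Arrdc3, chronic replicate 2 in Penk and Polg2, and chronic replicate 3 in Igf1r.

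**Figure D2:**
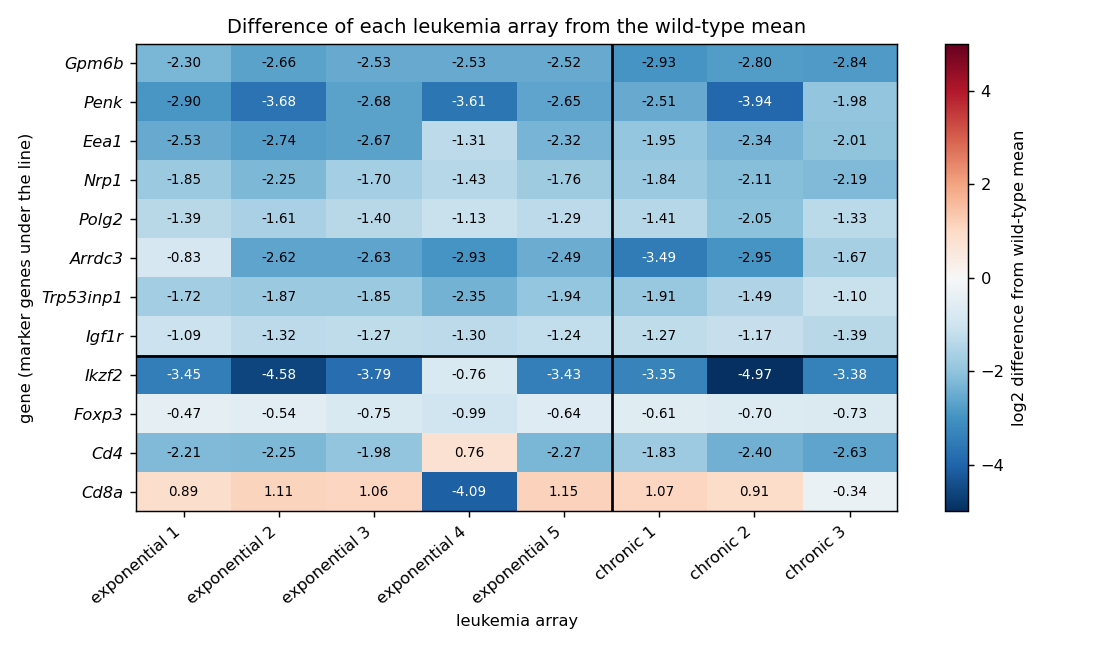
Log2 difference of each of the 8 leukemia arrays (columns, exponential then chronic) from the wild-type mean, for the 8 genes and, under the line, 4 T-cell marker genes (rows), with blue for lower and red for higher than wild type. All values of the 8 genes are negative; exponential replicate 4 is the array with Cd8a at -4.09 and Cd4 at 0.76, and has the smallest differences in Eea1 (-1.31), Nrp1 (-1.43) and Polg2 (-1.13).

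Exponential replicate 4, the array without a CD8 level of Cd8a, had differences from wild type that went both ways relative to the other 4 exponential arrays. Its difference was smaller in Eea1 (-1.31, against -2.57 for the mean of the other 4), Nrp1 (-1.43 against -1.89) and Polg2 (-1.13 against -1.42). It was larger in Penk (-3.61 against -2.98), Arrdc3 (-2.93 against -2.14) and Trp53inp1 (-2.35 against -1.84). In Gpm6b (-2.53 against -2.50) and Igf1r (-1.30 against -1.23) it was close to the others. All 8 genes were low in this array too. It was among the arrays that chose them, so this describes the selection.

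The next comparison set each gene beside a close relative or partner on the array. None of these 11 genes was called in either phase. Among relatives, Gpm6a, the other M6 glycoprotein, differed from wild type by -0.71 (95% interval -1.65 to 0.23, limma adjusted p = 0.663) in the exponential and 0.06 (-1.47 to 1.59, limma adjusted p = 0.988) in the chronic phase. Nrp2, which binds other semaphorins of the same class, differed by -0.14 (-0.39 to 0.12) and -0.05 (-0.32 to 0.22). Pdyn, the precursor of the dynorphins, differed by 0.25 (-0.07 to 0.58) and 0.19 (-0.16 to 0.54). The intervals of all 3 relatives stopped short of the differences given above for Gpm6b, Nrp1 and Penk. Those genes were chosen for large differences and the relatives were not, so nothing is read from this.

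The other alpha-arrestins, Trp53inp2 and Insr were also not called, though several of their intervals did not include 0. Arrdc4, an alpha-arrestin of the same group, differed by -0.25 (-0.46 to -0.04, limma adjusted p = 0.392) in the exponential phase, and its interval in the chronic phase reached from -0.28 to 0.27. Txnip, an alpha-arrestin that binds thioredoxin, differed by -0.53 (-2.28 to 1.23, and 0.13 without replicate 4) in the exponential and 1.09 (-0.03 to 2.21) in the chronic phase, with intervals too wide to place it. Trp53inp2, the second gene of the Trp53inp pair, differed by -0.29 (-0.74 to 0.16) and -0.50 (-0.94 to -0.06). The insulin receptor gene Insr differed by -0.42 (-0.81 to -0.03, limma adjusted p = 0.466) in the exponential and -0.98 (-1.69 to -0.26, limma adjusted p = 0.278) in the chronic phase, so that in the chronic phase its interval reached beyond the difference of Igf1r.

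Partners in the same complex or pathway had small differences, with intervals on both sides of 0. Polg, the catalytic subunit that Polg2 binds, differed by -0.04 (-0.54 to 0.46) in the exponential and -0.20 (-0.53 to 0.13) in the chronic phase. Rab5a, the GTPase bound by the Eea1 protein, differed by -0.05 (-0.54 to 0.43, and 0.06 without exponential replicate 4) and -0.01 (-0.41 to 0.39). Oprd1, the delta opioid receptor, differed by -0.12 (-0.39 to 0.14) and -0.07 (-0.37 to 0.22), and Igf1, a ligand of Igf1r, by 0.12 (-0.21 to 0.46) and -0.17 (-0.43 to 0.08).

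**Figure D3:**
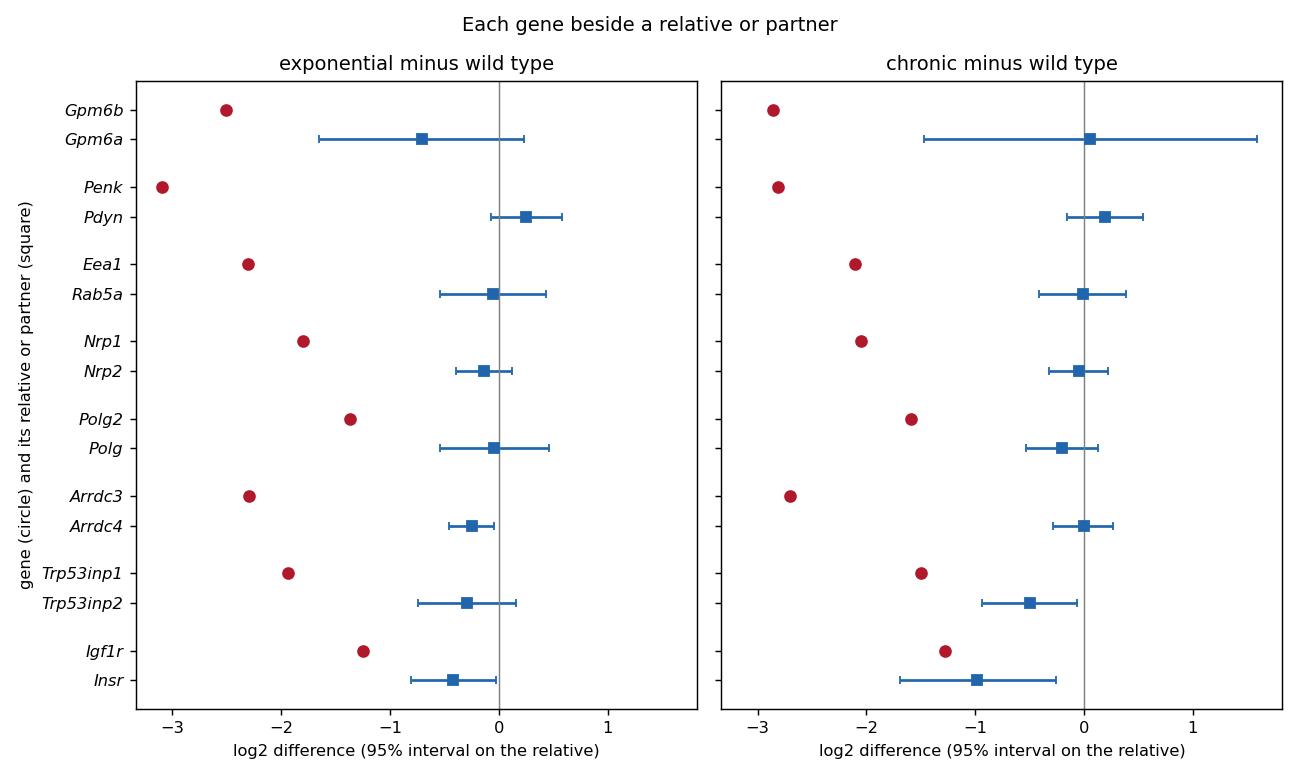
Log2 difference from wild type (horizontal axis) of the 8 genes (circles, values that chose them, no interval drawn) and of 1 relative or partner each (squares, with the 95% interval of the limma fit), for the exponential (left) and the chronic phase (right). All 8 circles lie between -3.10 and -1.25, and the squares between -0.98 (Insr, chronic) and 0.25 (Pdyn, exponential).

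The wider pathways of the 8 genes were then described through 9 lists with 163 measured genes besides the members. Of these 163, 0 were called in the exponential phase, 0 in the chronic phase and 0 between the phases by limma. The calling rates over all genes given above would leave a count of 0 unremarkable. Unadjusted p-values under 0.05 were found for 21 of them (12.9%, against 9.78% of all genes) in the exponential phase, 29 (17.8%, against 11.2%) in the chronic phase and 15 (9.2%, against 6.25%) between the phases. Without exponential replicate 4, 1 gene was called lower in the exponential phase (Smurf2, a NEDD4-family ligase, picked out after its value was seen), and without exponential replicate 1 it was Btg2. In the chronic phase the alternatives called Sesn3 in 3 settings, Ccr7 with the replicate block and Plxnc1 with array weights, all lower. Without exponential replicate 4, the exponential medians of the 9 lists lay between -0.04 and 0.12, and that of the FOXO targets was -0.04 in place of -0.20.

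**Figure D4:**
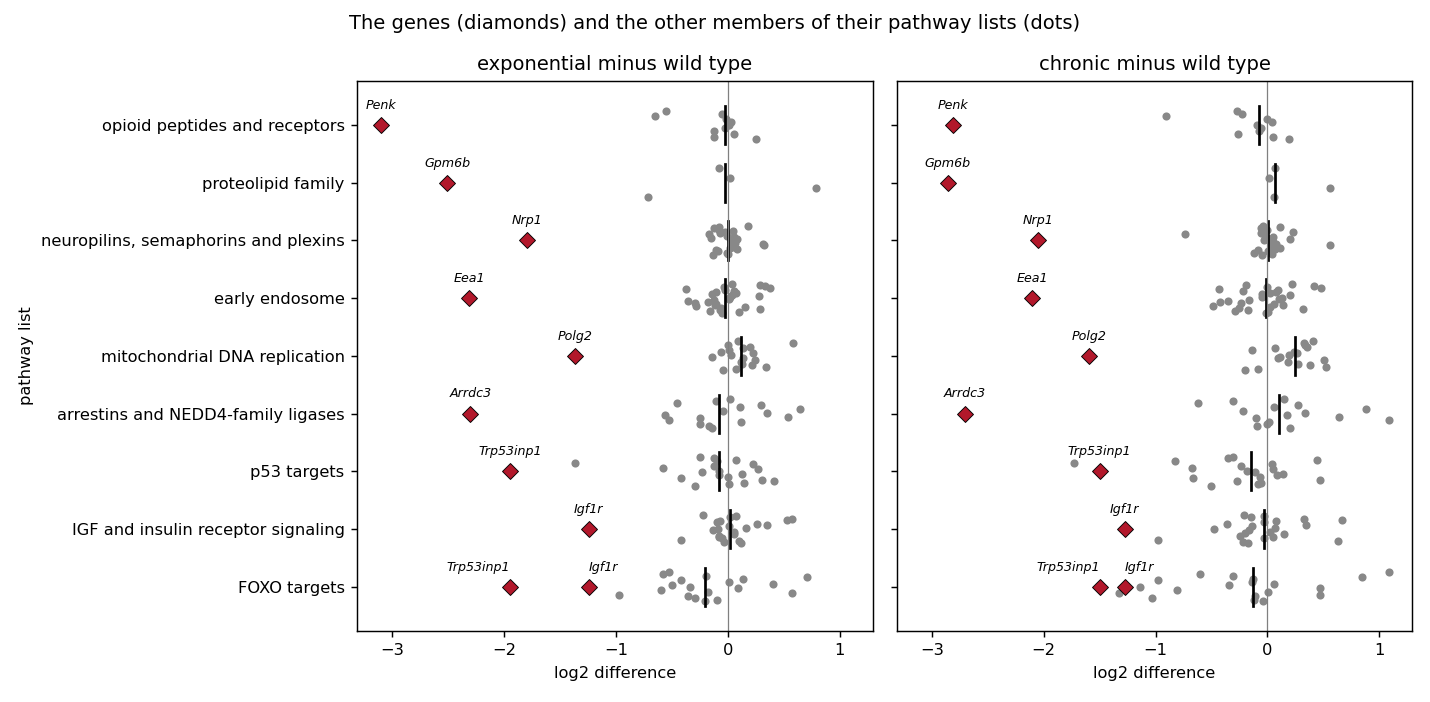
Log2 difference from wild type (horizontal axis) of the 163 measured pathway genes (dots) and the 8 chosen genes (diamonds) in 9 pathway lists (vertical axis), for the exponential (left) and the chronic phase (right), with the median of the dots as a black bar. The list medians lie between -0.20 and 0.25, and no dot lies as low as the diamond of its list except Btg2 among the p53 targets of the chronic phase (-1.73) and Ccr7 among the FOXO targets beside Igf1r (-1.33).

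Among the signaling lists, the 11 opioid genes had a median difference of -0.02 in the exponential and -0.07 in the chronic phase. The convertase gene Pcsk1, whose product cuts prohormones, was the lowest of them at -0.65 (limma adjusted p = 0.483) and -0.90 (0.365). The protease gene Ctsl was at -0.55 and -0.27. The 4 proteolipid genes had medians of -0.03 and 0.07, with Plp2 highest at 0.79 and 0.56. For the 25 neuropilin, semaphorin and plexin genes the chronic median was 0.01. Plxnc1, a semaphorin receptor, was their lowest gene at -0.17 in the exponential and -0.73 in the chronic phase, where its adjusted p by limma was 0.0573 (0.0381 with array weights), and Sema4a was at 0.32 and 0.56. The 23 genes of insulin-like growth factor and insulin signaling had medians of 0.02 and -0.03. Akt1, the kinase downstream of both receptors, was at 0.57 (limma adjusted p = 0.0875) and 0.33, and Igf2r, which clears insulin-like growth factor 2, at 0.10 and 0.63. The medians of these lists all lay closer to wild type than their chosen genes. Since those genes were picked as large falls, nothing is read from this.

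The trafficking and organelle lists had medians near 0 as well. The 30 early endosome genes had medians of -0.03 in the exponential and -0.01 in the chronic phase and stayed between -0.37 and 0.38 in the exponential and between -0.48 and 0.48 in the chronic phase. The sorting nexin gene Snx1 was at 0.34 and 0.42, and Rabgef1, an exchange factor of Rab5, at -0.36 and -0.35. The 16 arrestin and ligase genes had medians of -0.07 and 0.11, with the ligase gene Wwp1 at 0.64 and 0.88 and the beta-arrestin gene Arrb2 at 0.54 and 0.64. The 18 genes of mitochondrial DNA replication had medians of 0.12 and 0.25, opposite in sign to Polg2, and 3 of 18 were below 0 in each phase. Ssbp1, the single-strand binding protein of mitochondrial DNA, was at 0.24 and 0.51 and the nuclease gene Exog at 0.09 and 0.41. No single gene of these lists passed the test.

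The stress and transcription factor lists held the lowest companions. The 20 p53 target genes besides Trp53inp1 had medians of -0.08 in the exponential and -0.15 in the chronic phase. Btg2, an antiproliferative gene, was at -1.37 (limma adjusted p = 0.242) and -1.73 (0.135), and without exponential replicate 1 it fell by 1.71 in the exponential phase (limma adjusted p = 0.0143). The stress gene Sesn1 was at -0.41 and -0.67. The 19 FOXO target genes besides Trp53inp1 and Igf1r had medians of -0.20 and -0.13, with 13 of 19 below 0 in each phase. Sesn3, a sestrin, was at -0.34 in the exponential and -1.14 in the chronic phase (limma adjusted p = 0.0802), where it was called with 1 fit over all groups (0.0304), with the replicate block (0.0354) and with a variance trend (0.0487).

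Because the wild-type pools held T-cells of all kinds, marker lists of the cell types in question were read beside the 8 genes. These lists were drawn up with earlier results of these data known. All 14 measured regulatory T-cell markers were below the wild-type level in both phases, with medians of -1.29 in the exponential (-1.31 without replicate 4) and -1.46 in the chronic phase. They ranged from -4.33 (Ctla4) to -0.09 (Lrrc32) in the exponential and from -4.32 to -0.26 in the chronic phase, with the same genes at the ends. In the exponential phase 5 of them were called lower (Il2ra, Itgb8, Tigit, Tnfrsf4 and Tnfrsf9) and with 1 array left out it was 3 to 11, the 3 without wild-type replicate 1 or 2 and the 11 without exponential replicate 4. In the chronic phase 7 were called lower (Ctla4, Ikzf2, Il2ra, Itgb8, Izumo1r, Tnfrsf4 and Tnfrsf9), and 1 to 5 with 1 array left out, the 1 being Itgb8 without wild-type replicate 1 or 2. With the methods' t-test 1 marker was called in the exponential and 0 in the chronic phase, and over all rows 5 and 0. The summed signal of the list on the log2 scale was 7.0 to 8.66 in the exponential arrays, 6.85 to 7.98 in the chronic arrays and 10.49 to 11.04 in wild type, and so separated the leukemias from wild type as each of the 8 genes did. Their part in the differences of the 8 genes was not tested.

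Of the defining regulatory T-cell genes, Ikzf2, which encodes Helios, averaged 4.44 ± 1.44 in the 5 exponential arrays, 3.74 ± 0.93 in the 3 chronic arrays and 7.64 ± 0.08 in the 3 wild-type pools (± SD). It was at -3.20 in the exponential phase (limma adjusted p = 0.105, and 0.000167 at -3.81 without exponential replicate 4, whose value was 6.88) and fell by 3.89 in the chronic phase (limma adjusted p = 0.0160, and 0.0636 to 0.102 without any one wild-type pool). The chronic call of Ikzf2 was also lost with 1 fit over all groups (limma adjusted p = 0.059), the methods' t-test (0.329) and all rows (limma, 0.099). It was kept under the other alternatives. Foxp3, the lineage factor of regulatory T-cells, was low in all groups, at 2.55 ± 0.20 in the 5 exponential arrays, 2.55 ± 0.06 in the 3 chronic arrays and 3.23 ± 0.14 in the 3 wild-type pools (± SD), with a difference of -0.68 in both phases and an adjusted p by limma of 0.0782 in the exponential and 0.0787 in the chronic phase. In the exponential phase it was called without exponential replicate 4 (-0.60, limma adjusted p = 0.048), with array weights (0.0416) and with 1 fit over all groups (0.0422). Exponential replicate 4 had the highest Ikzf2 value among the leukemias and the lowest Foxp3 value, 2.24.

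The 5 CD4 T-cell markers were also all below wild type, with medians of -1.29 in the exponential (-1.50 without replicate 4) and -1.82 in the chronic phase. In the exponential phase 0 were called (3 without exponential replicate 4), and in the chronic phase 3 were called lower, among them Cd4. Cd4 was at -1.59 in the exponential phase (limma adjusted p = 0.442, and 0.000167 at -2.18 without exponential replicate 4). It fell by 2.29 in the chronic phase (limma adjusted p = 0.0122, and 0.0567 to 0.0697 without any one wild-type pool). The chronic call of Cd4 was also lost with 1 fit over all groups (limma adjusted p = 0.186), the methods' t-test (0.319) and all rows (limma, 0.0862). It was kept under the other alternatives. With 1 array left out the chronic count of called CD4 markers was 0 to 3, the 0 without wild-type replicate 1. With the methods' t-test or over all rows, 0 of these markers were called in the chronic phase. Their summed signal was 6.32 to 7.06 in the exponential arrays, 5.85 to 6.56 in the chronic arrays and 7.29 to 7.97 in wild type. That of 7 CD8 markers was 6.46 to 11.34 in the exponential arrays (10.83 to 11.34 without replicate 4), 11.02 to 11.85 in the chronic arrays and 10.32 to 11.39 in wild type. The median difference of the CD8 markers was 0.03 in the exponential (0.72 without replicate 4) and 0.55 in the chronic phase. Cd8a itself was at 0.03 (1.06 without replicate 4) and 0.55. Cd3e, of the T-cell receptor complex, was at -0.54 and -0.72 (limma adjusted p = 0.241 and 0.292, and 0.186 at -0.56 in the exponential phase without replicate 4), and the T-cell sum was 10.61 to 10.80 in the exponential arrays, 10.14 to 10.76 in the chronic arrays and 10.78 to 11.19 in wild type. The share of CD4 and regulatory cells in each sample was not measured, and the design cannot tell it apart from genotype.

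Among other cells, the 5 measured erythroid markers summed to 4.63 to 6.04 in the exponential arrays (4.63 to 4.86 without replicate 4). The sums were 4.52 to 9.34 in the chronic arrays and 8.63 to 9.84 in wild type. Car1 differed most, by -6.11 in the exponential phase, where it was called lower, and by -2.66 in the chronic phase. The list median was only -0.25 and -0.27, so the list as a whole shifted far less than Car1. The 11 myeloid markers summed to 9.81 in exponential replicate 4 and to 6.84 to 7.99 in the other exponential arrays. They summed to 5.67 to 6.14 in the chronic arrays and 5.75 to 6.02 in wild type. In the exponential phase 1 of them was called higher. Of the B-cell, dendritic cell, NK cell, platelet and stromal lists, 0 genes were called in any comparison. The calling rates over all genes would leave this unremarkable. In the exponential, chronic and wild-type arrays, the B-cell sums were 6.21 to 8.56, 5.56 to 7.43 and 5.84 to 7.36. The NK cell sums were 6.05 to 9.07, 5.43 to 6.98 and 5.78 to 6.22. For dendritic cells they were 5.27 to 5.94, 5.16 to 5.3 and 5.22 to 5.4. For platelets they were 4.06 to 4.73, 3.86 to 6.52 and 4.12 to 4.71. The stromal sums were 5.35 to 5.74, 5.33 to 5.53 and 5.63 to 5.69. The part of RNA from any of these other cells in the differences of the 8 genes was not tested.

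Finally, the 3 genes nearest to each of the 8 were found, by the mean absolute difference of log2 values over all 11 arrays after each gene was set to its own mean. The distances lay between 0.11 and 0.47. Since the 8 genes were chosen for their differences from wild type, genes with differences of like size come nearest, and the values are a description without a test. The 24 places were taken by 18 genes, of which 0 were among the 8, 4 stood on the regulatory T-cell list and 2 on the CD4 list. Igf1r was nearest to Lrba (0.11), Gpr52 (0.14) and Rabgap1l (0.15), and Polg2 to Lrba (0.16), Itgav (0.17) and Tnfrsf9 (0.19). Trp53inp1 was nearest to Rora (0.20), Neb (0.26) and Rabgap1l (0.26). Nrp1 was nearest to Il21 (0.24), Tnfrsf4 (0.26) and Slamf1 (0.27), and Eea1 to S100a4 (0.28), Cd40lg (0.31) and Slamf6 (0.32). Gpm6b was nearest to Itgb8 (0.29), Il1r2 (0.30) and Slamf1 (0.32), Penk to Tigit (0.39), Itgb8 (0.40) and Nr4a2 (0.42), and Arrdc3 to Rgs16 (0.39), Slamf1 (0.45) and Itgb8 (0.47). Itgb8 and Slamf1 each stood beside 3 of the 8 genes.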

How the data were processed

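Expression in splenic T-cells was measured with the Affymetrix Mouse Gene 1.0 ST array in 5 exponential, 3 chronic and 3 wild-type samples, grouped by their titles. The authors deposited log2 values, after RMA background correction and quantile normalization with the affy package of R (version not given in the sources used here). The log base was judged from the range, 0.775 to 13.5 with a median of 2.30 over all rows and arrays together. No detection calls were used, and precision is limited by the number of arrays.

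Of 34760 rows, 21640 carried 1 gene symbol in the platform annotation, 1321 several and 11799 none. Rows with 1 symbol were used, and the brightest row by mean stood for each of 954 genes that had more, which left 19937 genes. The Entrez identifiers of 19855 were found in the RefSeq table of GRCm38.p6, the source of coordinates and promoters. Each comparison was fitted on the arrays of its own groups with limma 3.58.1 (lmFit and eBayes) in R 4.3.3, with Benjamini-Hochberg adjustment over all genes and calls were made where the adjusted p was under 0.05 and the fold 1.5 or more. The scripts were tested on simulated data. SDs are between arrays and SEs those of the fit.

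The 8 genes and all gene lists were chosen with earlier results of these data known. The genes named are the 8, 11 relatives or partners, 5 T-cell markers, the called genes of each list or, failing 3, those with the smallest p against wild type up to 3, and the 3 nearest genes of each of the 8; the others named are marked as chosen after their values were seen, or are called marker genes and list extremes. Alternatives were a single fit of the 3 groups, a block by replicate number, filters on the dimmest 30% or 50% of genes, median centring, cyclic loess, robust estimation with a variance trend, weights per array, the methods' t-test, gene means over their rows, all rows, and each array left out.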

Additional observations from a re-analysis of the deposited data

Results flagged for a closer look

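In the 40 named genes examined, 4 held an exponential array that stood apart from the other 4 by more than the 95% critical value of Dixon's test for 5 samples (0.71 of the group's range). Chance alone sets apart about 1 in 20 groups. Arrdc3 stood at 6.17 in exponential replicate 1, against 4.08 to 4.52 in the other exponential arrays, a gap of 0.79 of the range. Btg2, an antiproliferative p53 target, stood at 8.23 in the same array, against 6.23 to 6.79 in the others (0.72 of the range). Cd4 stood at 5.18 in exponential replicate 4, against 2.15 to 2.44 in the others (0.91 of the range). Cd8a stood at 2.96 in the same array, against 7.94 to 8.20 in the others (0.95 of the range). The causes were not tested.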

How the results depend on the processing

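Under all alternatives, the differences of the 8 genes from wild type kept their sign. They stayed within the larger of the 2 group SDs, in 151 values for the exponential and 135 for the chronic phase. Several alternatives, such as the single fit, the filters, the variance trend and the t-test, leave the difference itself unchanged. Leaving 1 array out can move a group mean by only part of its SD. This outcome was therefore largely fixed in advance, and nothing is read from it. Between the phases, 5 of 151 values turned their sign, 2 of Penk (0.01 with array weights, and -0.86 to 0.12 with 1 array left out) and 3 of Igf1r (-0.0026 with array weights, and -0.03 to 0.08 with 1 array left out). None of the 8 was called between the phases under any alternative. Calls of the 8 against wild type, which only describe the selection, varied with the setting. In the chronic phase 7 became 0 with the methods' t-test and 0 over all rows, and over 17 alternatives Penk was called in 8, Nrp1 and Arrdc3 in 9 each and Trp53inp1 in 10. In the exponential phase 7 became 2 with the methods' t-test, and Arrdc3 was called in 5 of 19 alternatives.

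Genes called in the exponential phase against wild type numbered 83 and became 139 with the replicate block, 4 with the methods' t-test (1747 at an unadjusted p under 0.05) and 45 over all rows. They numbered 16 to 221 with 1 array left out, with 16 without wild-type replicate 2 and 221 without exponential replicate 4. In the chronic phase 91 became 154 with a variance trend and robust estimation, 0 with the methods' t-test (1738 at an unadjusted p under 0.05), 0 over all rows (3221 at an unadjusted p under 0.05) and 8 to 108 with 1 array left out, the 8 without wild-type replicate 1. Between the phases the 0 calls became 0 to 2 with 1 array left out; the 2, Plbd1 and Tjp1, came without chronic replicate 1 and were named after their values were seen. Deviations of same-numbered arrays correlated at -0.012 to 0.174 for exponential and wild type, -0.008 to 0.18 for chronic and wild type and -0.037 to 0.161 for exponential and chronic. The correlation was highest with the own number in 1 of 3, 2 of 3 and 1 of 3 arrays. Whether arrays with the same replicate number shared a batch cannot be told from these values. With the replicate block, calls in the chronic phase numbered 110 and between the phases 0. The share of higher calls in the exponential phase was 32.5%, 24.7% with cyclic loess and 43.9% with the block. The cause of these changes was not tested.

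Of the other named genes, those whose sign turned lay near 0 or had wide intervals. With 1 array left out, exponential differences from wild type ranged from -0.20 to 0.06 for Rab5a, -0.18 to 0.10 for Polg, -0.82 to 0.13 for Txnip, -0.20 to 0.39 for Igf2r and -0.41 to 1.06 for Cd8a, and chronic ones from -0.48 to 0.76 for Gpm6a, -0.16 to 0.10 for Rab5a, -0.16 to 0.0029 for Oprd1, -0.10 to 0.0011 for Nrp2 and -0.07 to 0.04 for Arrdc4. In the exponential phase Rab5a was at 0.01 with array weights, Txnip at 0.39 and Igf1 at -0.05 with the replicate block and Cd8a at -0.03 with cyclic loess, and in the chronic phase Gpm6a was at -0.25 with array weights and Arrdc4 at 0.0036 with median centring and 0.003 with cyclic loess.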
